A study of Mus musculus with 26 samples.

Results

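The mRNA of 10 intracellular negative regulators of TCR signaling was followed in TCRTg101, CD8+ T cells that carry a transgenic receptor for an antigen of the murine leukemia C1498. The genes were Csk, Pag1, Ptpn22, Ptpn6, Ptpn11, Ptpn2, Ptpn7, Ubash3a, Ubash3b and Sla2. They were chosen by name for their known function, with earlier results of these data known, out of 35865 genes with a matched transcript. All 10 passed the filter on low counts that left 15449 genes for testing. Antigen binding lets the kinases Lck and Fyn phosphorylate the receptor complex, which recruits Zap70. These 10 proteins oppose that cascade at successive steps, by holding Lck inactive, by removing phosphate from Lck, Zap70 and downstream kinases, or by promoting loss of the receptor from the surface. Several of them act behind inhibitory receptors such as PD-1, and they are studied as brakes on exhausted T cells.

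TCRTg101 were sorted by flow cytometry at day 0 or at later days after transfer into mice, and RNA was sequenced from low-input libraries. Of 14 such libraries, 3 were controls labelled spleen, namely naive TCRTg101 at day 0 (replicate 1 and 2) and TCRTg101 from an untreated mouse at day 18 (replicate 3). The others came from leukemia-bearing mice and comprised 1 library of undivided cells (bright for the division dye CTV) labelled spleen at day 18, 2 early spleen libraries (day 7), 1 mid spleen library (day 14), 2 early liver libraries (day 7), 3 mid liver libraries (days 13, 13 and 14) and 2 late liver libraries (days 18 and 16). An additional day 0 library was primed with oligo-dT and was kept out of all tests. The study also describes undivided cells sorted from liver, so the tissue of the undivided library is uncertain. All samples are labelled C57BL/6, 6 weeks old and wild type. The cells are from the Tg101 line, which is 1 transgenic receptor, and the number of mice per library is not given in the sources used here, so p-values measure the spread between these libraries, which may be technical. Titles place the libraries in a TG series (control replicate 1, mid liver replicate 1 and late liver replicate 1) and an XC series (the other 11), and the series was a term of the main fit. All controls were labelled spleen, so leukemia and tissue cannot be told apart in comparisons of liver libraries with controls. Control replicates 1 and 2 were from day 0, so against them time after transfer cannot be told apart from leukemia either.

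Library depth was 22918996 to 71358287 estimated counts (median 34349318). Genes that mark CD8 T cells summed to 4232 to 9568 CPM in every library. Markers of macrophages, monocytes or granulocytes (12 genes, none at 0 in all controls) summed to 21.6 to 1127 CPM in controls and 5.57 to 70.3 in all other libraries, led by C1qb at 345.5 CPM in control replicate 1. Erythroid markers (4 genes) summed to 135.5 to 20120 CPM in controls and to at most 213.8 elsewhere. Hepatocyte markers (6 genes) summed to 0.974 to 319.2 CPM in controls, 2.38 to 185.8 in mid liver and 70.6 to 308.1 in late liver, where their defining member Alb was at 131.7 and 24.5 CPM (at most 0.0325 in controls). The control maximum was Trf alone, at 319.2 CPM in control replicate 1. Pdcd1, which encodes PD-1, was at 1.12 to 2.44 CPM in controls, 527.0 and 975.5 in late liver libraries, and 153.8 and 2.63 in early liver replicates 1 and 2, so the early libraries stood far apart.

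Between controls and the 5 mid and late liver libraries, 3 of the 10 regulators rose and 1 fell. The test was the quasi-likelihood test of edgeR, with p-values adjusted by Benjamini-Hochberg over all tested genes and a threshold of 0.05. Ubash3b, Ptpn11 and Ptpn7 rose, and Pag1 fell. In bulk RNA, a change in the share of cells that express a gene and a change in its RNA per cell cannot be told apart. Over all genes tested, 43.9% changed in that comparison, 23.1% higher and 20.8% lower, so 4 of 10 members called was near the background. The median log2 fold change of the members was 0.30 (-0.07 for all genes tested). Levels below are CPM (counts relative to the total of the library, scaled by TMM), which allow a gene to be compared between libraries. Changes are log2 fold changes from the fit ± SE. The SE was derived as the absolute change over the square root of the test's F statistic.

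The 3 members that rose from controls to mid and late liver are shown first by sequence. They did not move together in every library, and in early liver replicate 1 Ptpn11 was near the controls. The 250 bases upstream of the transcription start are given from RefSeq (GRCm38.p6), 5′ to 3′ on the strand of the gene. Capitals mark matches, on either strand, to the NFAT core GGAAA, the AP-1 motif TGANTCA, the NR4A response element AAAGGTCA or the EGR core GCGTGGG. Ubash3b lies on the minus strand, with its window at chr9:41158063-41158312, Ptpn11 on the minus strand at chr5:121191398-121191647, and Ptpn7 on the plus strand at chr1:135132450-135132699.
Ubash3b: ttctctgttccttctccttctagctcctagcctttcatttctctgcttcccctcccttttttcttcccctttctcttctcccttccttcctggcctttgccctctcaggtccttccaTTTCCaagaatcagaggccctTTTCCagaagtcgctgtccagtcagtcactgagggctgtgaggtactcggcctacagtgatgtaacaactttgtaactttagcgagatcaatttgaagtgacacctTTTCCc
Ptpn11: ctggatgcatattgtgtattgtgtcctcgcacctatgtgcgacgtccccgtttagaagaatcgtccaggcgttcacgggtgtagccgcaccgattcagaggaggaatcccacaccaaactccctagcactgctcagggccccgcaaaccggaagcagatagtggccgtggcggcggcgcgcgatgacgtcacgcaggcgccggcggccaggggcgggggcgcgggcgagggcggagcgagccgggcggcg
Ptpn7: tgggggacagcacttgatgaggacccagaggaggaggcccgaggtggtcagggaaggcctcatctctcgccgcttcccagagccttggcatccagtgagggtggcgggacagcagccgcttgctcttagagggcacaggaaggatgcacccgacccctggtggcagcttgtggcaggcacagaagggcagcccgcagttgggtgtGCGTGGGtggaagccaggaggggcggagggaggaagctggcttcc

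The Ubash3b window held 3 copies of the NFAT core, the Ptpn7 window 1 copy of the EGR core, and the Ptpn11 window no match to these letters. At a second start listed for each, Ubash3b had 1 NFAT core and Ptpn7 had 2 and no EGR core. One of the windows of Csk also held 3 NFAT cores, and the window of Sla2, which fell in mid liver, held 2. At least 1 NFAT core was present in 55.6% of 32851 promoter windows of that length, and 3 or more in 6.39%. The EGR core was present in 4.3% of windows, the AP-1 motif in 6.75% and the NR4A element in 1.34%. Among the 8 members with an entry, AP-1 and NR4A letters were in no window, and the EGR core was also in 1 of 2 windows of Csk. The Ptpn11 window was rich in CpG (31 dinucleotides against 3 for Ubash3b, 9 for Ptpn7 and a median of 6 over all windows). Such matches describe letters only, and binding was not measured.

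**Figure D1:**
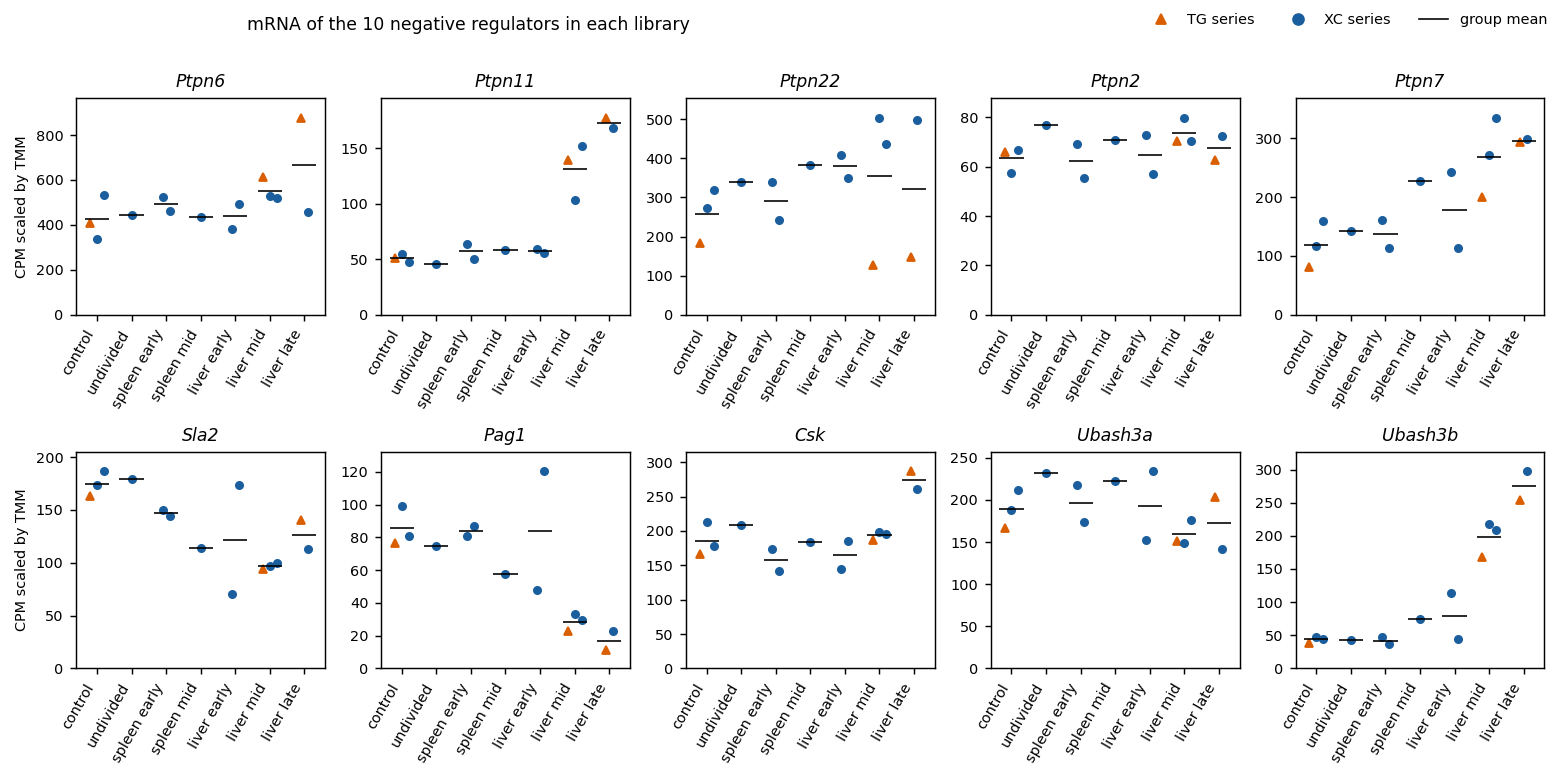
Level of each member (CPM scaled by TMM, linear axes from 0) in the 14 libraries, by group. Triangles are libraries of the TG series, circles those of the XC series and bars group means. Ubash3b, Ptpn11 and Ptpn7 lie higher in all 5 mid and late liver libraries than in the 3 controls, Pag1 and Sla2 lower, and Ptpn22 is split by series.

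Ubash3a and Ubash3b encode Sts-2 and Sts-1, which bind Cbl ubiquitin ligases, and Sts-1 is the more active phosphatase toward Zap70. Ubash3b was the member with the largest rise. It was at 39.1, 46.9 and 45.0 CPM in the controls, 42.8 in undivided cells, 47.4 and 36.2 in early spleen, 75.0 in mid spleen, 114.2 and 44.2 in early liver, 168.0, 218.4 and 209.4 in mid liver, and 254.2 and 297.4 in late liver. All mid and late liver libraries were thus above every other library, and early liver replicate 1 and the mid spleen library lay between these and the controls. Ubash3b rose by 2.18 ± 0.30 from control to mid liver (adjusted p = 0.0112) and by 2.70 ± 0.32 to late liver (adjusted p = 0.00294, edgeR).

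Its paralog Ubash3a did not pass the test in any comparison. Ubash3a was at 166.5, 188.6 and 211.9 CPM in controls, 231.6 in undivided cells, 217.4 and 174.3 in early spleen, 222.9 in mid spleen, 152.4 and 234.1 in early liver, 151.7, 149.5 and 176.1 in mid liver, and 203.2 and 141.9 in late liver. The groups overlapped, with log2 fold changes of -0.25 ± 0.22 (mid) and -0.13 ± 0.26 (late). The balance of the paralogs therefore moved with Ubash3b. The ratio of Ubash3b to Ubash3a CPM within a library was 0.235, 0.249 and 0.212 in the controls, 1.11, 1.46 and 1.19 in mid liver and 1.25 and 2.10 in late liver. The mid and late libraries did not overlap with the controls. The ratio is not corrected for length, and per length (TPM) Ubash3b was above Ubash3a in mid replicate 2 (82.4 against 66) and late replicate 2 (101.9 against 65.7) but below it in mid replicates 1 (27.8 against 43.4) and 3 (73.8 against 79.4) and late replicate 1 (38.2 against 51.3). The CPM ratio was 0.185 in undivided cells, 0.337 in mid spleen, and 0.749 and 0.189 in early liver.

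Ptpn6 and Ptpn11 encode SHP-1 and SHP-2, phosphatases with paired SH2 domains that dock on phosphorylated inhibitory receptors. SHP-2 is recruited by PD-1 and also has positive roles in Ras signaling. Ptpn11 was at 50.9, 55.2 and 47.8 CPM in the controls, 45.9 in undivided cells, 64.2 and 50.8 in early spleen, 58.6 in mid spleen, 59.2 and 55.7 in early liver, 139.8, 103.5 and 152.5 in mid liver, and 177.8 and 168.2 in late liver. Among the 14 low-input libraries, none outside mid and late liver exceeded 64.2 CPM. Early liver replicate 1, which already had raised Ubash3b and Pdcd1, was near the controls for Ptpn11. Ptpn11 rose by 1.36 ± 0.18 to mid liver (adjusted p = 0.0111) and by 1.74 ± 0.20 to late liver (adjusted p = 0.00294, edgeR).

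Ptpn6 was at 406.6, 339.5 and 534.8 CPM in controls, 442.8 in undivided cells, 523.5 and 461.9 in early spleen, 436.5 in mid spleen, 382.6 and 494.9 in early liver, 611.1, 527.6 and 518.4 in mid liver, and 877.3 and 458.1 in late liver. Mid and late libraries overlapped with controls, and the log2 fold changes were 0.36 ± 0.25 (mid, adjusted p = 0.28) and 0.54 ± 0.28 (late, adjusted p = 0.15, edgeR). The 2 highest values were both in liver libraries of the TG series, which rests on the TMM scaling. Without it, mid replicate 1 (497.9 CPM) was below control replicate 3 (587.1 CPM). In TPM, mid replicate 1 (224.0) and late replicate 1 (239.2) lay within the controls (160.7 to 288.9). Ptpn6 is also expressed in myeloid cells, and the part of macrophage RNA in its levels was not tested. The ratio of Ptpn11 to Ptpn6 CPM was 0.125, 0.163 and 0.0895 in controls, 0.229, 0.196 and 0.294 in mid liver, and 0.203 and 0.367 in late liver, with no overlap. Both paralog ratios were chosen after the values were seen, so they are a description with no test.

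**Figure D2:**
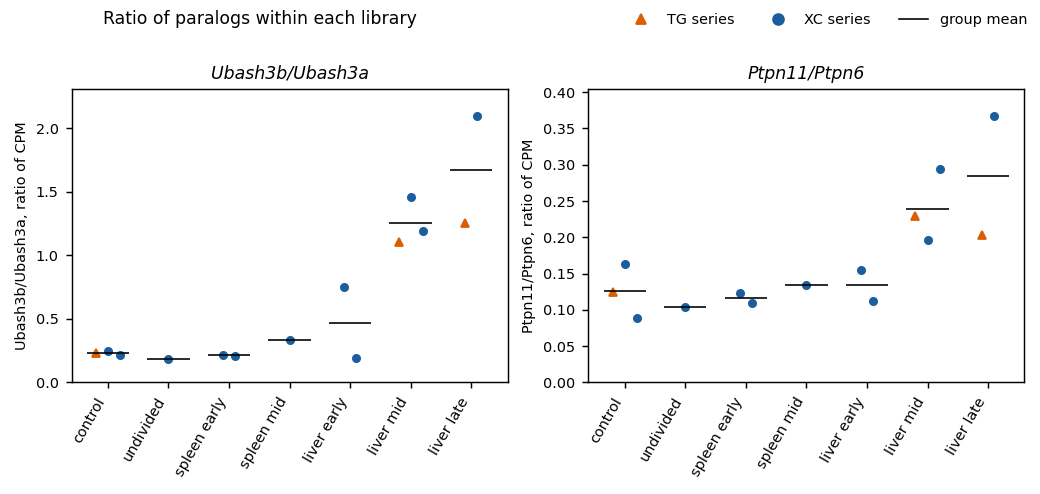
Ratio of Ubash3b to Ubash3a CPM (left) and of Ptpn11 to Ptpn6 CPM (right) in each library, by group, on linear axes from 0. Triangles are the TG series, circles the XC series and bars group means. Both ratios are higher in all 5 mid and late liver libraries than in the 3 controls, and early liver replicate 1 is intermediate (0.749) for the first ratio only.

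Csk phosphorylates the inhibitory tyrosine of Lck and Fyn, and Pag1 (also called Cbp) is the membrane adaptor that anchors it near the receptor. Pag1 fell in mid and late liver, and Csk was called in late liver only. Pag1 was at 76.6, 99.3 and 80.6 CPM in controls, 74.6 in undivided cells, 80.8 and 87.1 in early spleen, 57.4 in mid spleen, 47.6 and 120.3 in early liver, 22.8, 33.3 and 29.3 in mid liver, and 11.3 and 22.8 in late liver. All mid and late libraries lay below all others, and the early liver libraries held one value under and one over every control. Pag1 changed by -1.60 ± 0.30 from control to mid liver (adjusted p = 0.0135) and by -2.31 ± 0.36 to late liver (adjusted p = 0.00465, edgeR).

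Csk was at 167.2, 212.4 and 178.5 CPM in controls, 208.3 in undivided cells, 173.8 and 142.4 in early spleen, 183.5 in mid spleen, 144.5 and 186.0 in early liver, 187.3, 199.0 and 196.3 in mid liver, and 286.9 and 261.6 in late liver. Only the late liver libraries lay above the controls. This rests on the TMM scaling, without which late replicate 1 (207.4 CPM) was below control replicate 2 (219.6 CPM). In TPM, late replicate 1 (93.8) lay within the controls (78.5 to 138.5). Csk rose by 0.58 ± 0.20 to late liver (adjusted p = 0.0443, edgeR). This call was lost without a filter (adjusted p = 0.124), without a series term (0.106) and with day 0 controls only (0.104). It was also lost in the 11 libraries without early and mid spleen (0.0514). Leaving out any 1 of the control or late libraries ended the call as well. In mid liver Csk did not pass the test (0.06 ± 0.17). Between late and mid liver the Csk difference was 0.51 ± 0.20 with an adjusted p of 0.97, so a change between those stages was not shown.

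Ptpn22 encodes a phosphatase that binds Csk and acts on Lck and Zap70. Ptpn22 was at 184.8, 272.2 and 318.9 CPM in controls, 338.3 in undivided cells, 338.3 and 241.1 in early spleen, 381.7 in mid spleen, 409.7 and 349.7 in early liver, 127.9, 503.9 and 435.9 in mid liver, and 148.7 and 496.8 in late liver. The lowest value of the control, mid and late groups was in each case the TG library. Within the TG series both liver libraries were below the control, and within the XC series the 3 mid and late libraries were above both controls. Fitted within series, the log2 fold change was -0.41 (TG) and 0.66 (XC). The difference between series was 1.06, with an adjusted p of 0.27 over all genes (edgeR). The pooled changes were 0.25 ± 0.27 (mid) and 0.31 ± 0.29 (late), and Ptpn22 was not called.

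Ptpn2 encodes TC-PTP, which acts on Lck and on Jak kinases of cytokine receptors. It was the steadiest member in CPM scaled by TMM, between 55.6 and 79.9 in all 14 libraries. Without that scaling it was no steadier than Csk (45.3 to 80.5 CPM, against 152.6 to 248.4 for Csk). In TPM, Ptpn2 ranged from 22.8 (late replicate 1) to 50.3 (undivided cells). Its controls were at 66.1, 57.5 and 66.9 CPM, mid liver at 70.6, 79.9 and 70.5, and late liver at 62.6 and 72.5. The mid libraries were above the controls by small steps. Without TMM scaling, mid replicate 1 (57.6 CPM) was below the controls (59.4 to 73.4 CPM). The log2 fold change in mid liver was 0.21 ± 0.17 (adjusted p = 0.34, edgeR). In late liver it was 0.10 ± 0.19.

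Ptpn7 encodes HePTP, a phosphatase of Erk and p38 kinases further down the cascade. Ptpn7 was at 81.5, 117.1 and 159.3 CPM in controls, 142.7 in undivided cells, 160.6 and 114.2 in early spleen, 226.4 in mid spleen, 242.5 and 113.2 in early liver, 199.2, 271.7 and 334.7 in mid liver, and 293.3 and 298.1 in late liver. All 5 mid and late libraries were above the controls, as were the mid spleen library and early liver replicate 1. This rests on the TMM scaling, without which mid replicate 1 (162.3 CPM) was below control replicate 3 (174.9 CPM). In TPM, mid replicate 1 (41.2) and late replicate 1 (50.3) were both below control replicate 3 (58.5). Ptpn7 rose by 1.18 ± 0.29 to mid liver (adjusted p = 0.0184) and by 1.45 ± 0.33 to late liver (adjusted p = 0.0112, edgeR). Without a series term the mid call was lost (adjusted p = 0.056).

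Sla2 encodes SLAP-2, an adaptor that works with Cbl to lower receptor levels at the surface. Sla2 was at 163.4, 173.8 and 186.6 CPM in controls, 179.3 in undivided cells, 150.3 and 143.8 in early spleen, 113.8 in mid spleen, 70.1 and 173.3 in early liver, 93.7, 96.5 and 100.2 in mid liver, and 140.0 and 113.3 in late liver. All mid, late and early spleen libraries lay below the controls. Without TMM scaling, early spleen replicate 2 (174.4 CPM) was above control replicate 1 (167.8 CPM). Sla2 fell in mid liver (-0.85 ± 0.28, adjusted p = 0.042, edgeR). The call was lost without a series term (adjusted p = 0.0814), and in the 11 libraries without early and mid spleen (0.0522). It was also lost with day 0 controls only (0.0955), and with any 1 of the control or mid libraries left out (0.0917 to 0.146). In late liver the change was -0.46 ± 0.32 (adjusted p = 0.26), and over mid and late libraries together it was -0.66 ± 0.25 (adjusted p = 0.0514).

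**Figure D3:**
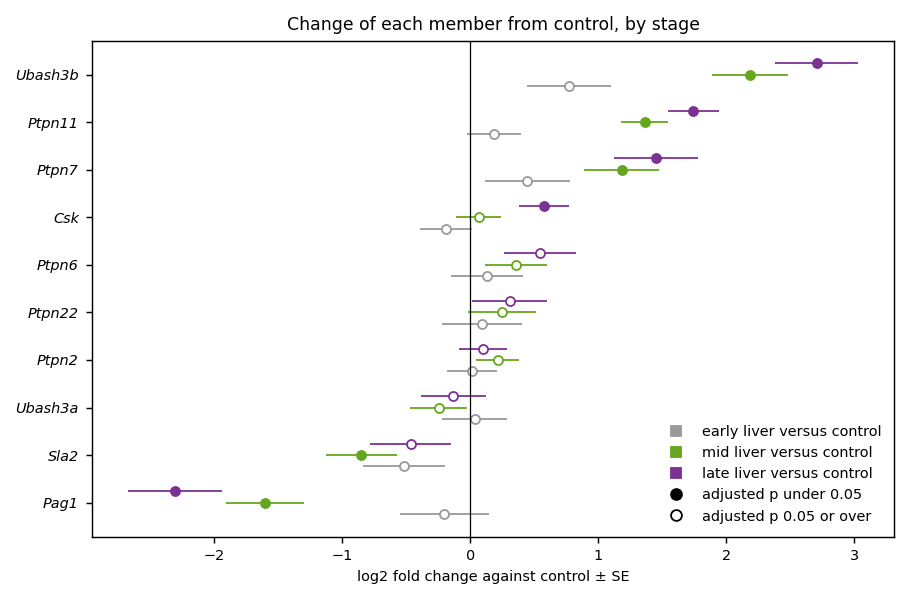
Log2 fold change against control (± SE, edgeR) of each member in early, mid and late liver, ordered by the late change. Filled points have an adjusted p under 0.05. Ubash3b is highest (2.70 in late liver) and Pag1 lowest (-2.31), and no early liver change is filled.

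By stage, 5 members were called in mid liver, where Ubash3b, Ptpn11 and Ptpn7 rose and Sla2 and Pag1 fell. Of all genes tested, 29.3% were called at this stage, 17.5% higher and 11.8% lower. In late liver 5 members were called too, with Csk in place of Sla2, so that 4 rose and 1 fell. Among all genes 34.2% were called there, 19.9% higher and 14.3% lower. With 10 genes, these shares do not set the members apart from other genes. Members were also counted by libraries that did not overlap with controls in CPM scaled by TMM. In mid liver 4 members were above and 2 below (20.9% and 21.2% of all genes), and in late liver 4 above and 2 below (27.8% and 28.2%). Over mid and late liver together, 3 were above and 2 below (18.8% and 18.2%). Without that scaling, Ptpn7 and Ptpn2 overlapped with the controls in mid liver, and Csk in late liver.

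No member was called in mid liver without control replicate 1, control replicate 2 or mid replicate 1, and 1 was called without mid replicate 3. Over all genes these fits called 5, 0, 3 and 32. The mid changes in them were 2.18 to 2.22 for Ubash3b, 1.21 to 1.43 for Ptpn11, 1.05 to 1.23 for Ptpn7 and -1.64 to -1.44 for Pag1. In late liver 3 members were called without control replicate 1. Either late replicate left out leaves 1 late library, and calls were lost there, all of them without late replicate 2. Over mid and late liver together 3 to 5 members were called when any single library was left out. Over all genes, calls also fell in late liver without late replicate 2, and in mid and late liver without control replicate 1. These counts are therefore not particular to the members. No member was called in the XC series alone or against the day 18 control alone, both set after the data were seen. Over all settings run, the late change was 2.65 to 2.75 for Ubash3b and 1.66 to 1.80 for Ptpn11, and it was -2.69 to -1.99 for Pag1 and 1.06 to 1.79 for Ptpn7. Within series, the change over mid and late liver was 2.44 (TG) and 2.35 (XC) for Ubash3b, 1.65 and 1.41 for Ptpn11, 1.60 and 1.09 for Ptpn7, and -2.14 and -1.70 for Pag1. Each of these members had the same direction in every mid and late library of both series. The part of macrophage and erythroid RNA in controls, and of hepatocyte RNA in liver libraries, in these differences was not tested. Control replicate 3, the control with the least of both marker lists (21.6 and 135.5 CPM), had Ubash3b (45.0 CPM) and Pag1 (80.6 CPM) between the other controls and the lowest Ptpn11 (47.8 CPM), but the highest Ptpn7 (159.3 CPM). Against that control alone, the Ptpn7 change was 0.84 in mid and 1.06 in late liver.

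Early liver and early spleen gave no called member, and no gene of all tested was called (0%) in either, with 1677 and 970 genes at an unadjusted p under 0.05. Ubash3b had the largest early liver change (0.77 ± 0.33, adjusted p = 0.45, edgeR). In early liver, Ptpn11 and Ptpn22 lay above the controls and no member below (9.6% and 10.8% of all genes). In early spleen no member lay above and Sla2 lay below (8.08% and 10.2%). Without early liver replicate 2, the fit called 3 members (12.5% of all genes), namely Ubash3b (1.30 ± 0.20, adjusted p = 0.00253), Sla2 (-1.32 ± 0.23, adjusted p = 0.0041) and Pag1 (-1.02 ± 0.27, adjusted p = 0.0314), with the lone library assumed to vary like the other groups. Ptpn11 was at 0.22 ± 0.25 in that fit. Without replicate 1 no member was called.

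No member was called between early liver and early spleen (0% of genes, 1391 at an unadjusted p under 0.05). Ubash3b was closest, at 0.92 ± 0.35 with an adjusted p of 0.54 (edgeR). Without early liver replicate 2, Ubash3b (1.45 ± 0.22, adjusted p = 0.00444) and Sla2 (-1.07 ± 0.23, adjusted p = 0.0207) were called (6.36% of all genes). No member was called between late and mid liver either (0% of genes, 767 unadjusted). DESeq2 also called no member in these comparisons or in early liver and early spleen against controls.

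The undivided cells were 1 library, which the fit assumed to vary like the other groups, so comparisons with them rest on no spread of their own. They gave no called member against controls (0% of genes, 173 unadjusted), and the member differences lay between -0.37 (Pag1) and 0.30 (Ubash3a). Against undivided cells, late liver had no called member either (0% of genes, 3748 unadjusted). The sizes were 2.82 ± 0.51 for Ubash3b and 1.88 ± 0.31 for Ptpn11 (adjusted p = 0.0718 for both, edgeR) and -1.94 ± 0.45 for Pag1 (adjusted p = 0.0789). DESeq2 called 3 members in that comparison (13.7% of genes), and edgeR without a filter on low counts called 4 (6.77% of genes).

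Compared per transcript length (TPM), the order of levels in controls was Ptpn6 (mean 204.0 TPM), Csk (117.3), Ptpn22 (111.0), Ubash3a (78.8), Sla2 (59.9), Ptpn7 (39.6), Pag1 (39.3), Ptpn2 (38.2), Ubash3b (15.9) and Ptpn11 (8.40). The ranges of neighbours over the controls overlapped, except for Ptpn6 over Csk and Ptpn2 over Ubash3b. Within each control, Ptpn22 was also above Ubash3a, Ubash3a above Sla2, Sla2 above Ptpn7, and Ubash3b above Ptpn11. In late liver, Ubash3b took place 5 (mean 70.0 TPM, with 38.2 in the TG library and 101.9 in the XC library), 1 place above Ubash3a by the mean but below it in the TG library (51.3 TPM for Ubash3a), and Ptpn7 took place 4. Pag1 moved from place 7 to place 10 and Ptpn11, despite its rise, was at place 9.

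Estimated shares of transcripts within a gene also differed between stages for Ubash3a and Ptpn22, whose totals were not called. The processed transcript Ubash3a-204, which has no annotated coding sequence, held 38.1% to 41.8% of Ubash3a counts in controls and 48.8% to 64.6% in mid and late liver. The coding transcript Ubash3a-208 held 23.5% to 40.0% in controls, 12.3% to 25.3% in mid liver, and 15.9% and 12.6% in late liver. Ptpn22-204, annotated for nonsense-mediated decay, held 8.16% to 8.92% of Ptpn22 counts in controls, 13.2% to 17.9% in mid liver, and 17.6% and 21.9% in late liver. Its share was also above the controls in early liver (17.0% and 13.8%), mid spleen (15.9%) and undivided cells (11.1%). In early spleen it was 13.5% and 8.84%. Mid and late libraries did not overlap with controls for Ubash3a-204 and Ptpn22-204. These transcripts were picked after their values were seen, kallisto divides reads among overlapping transcripts by estimation, and no test was made.

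**Figure D4:**
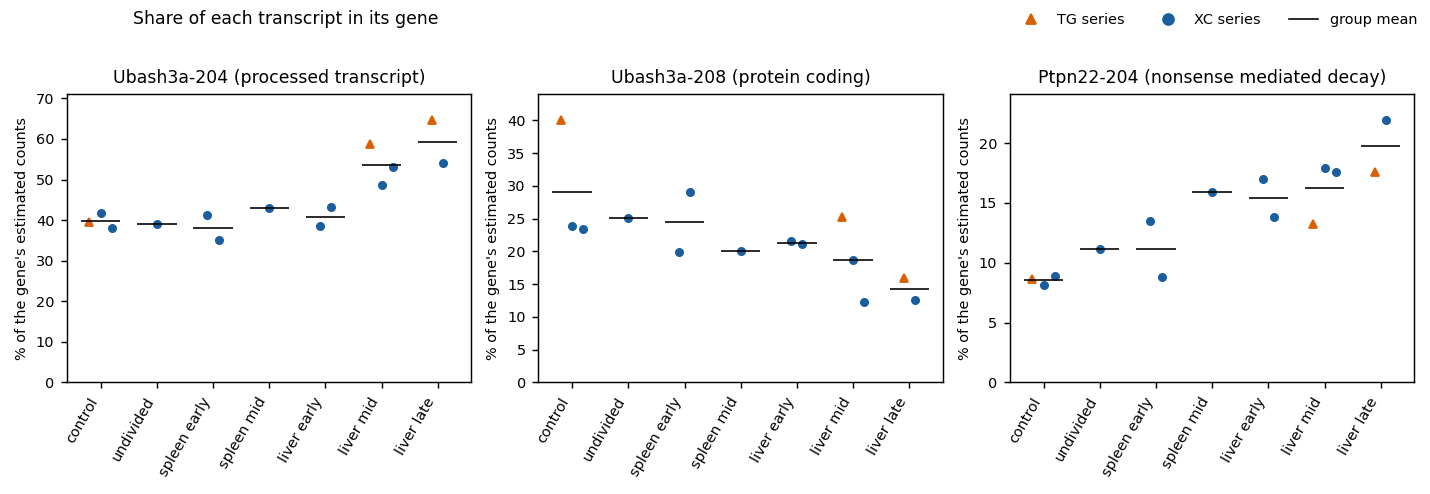
Share of 3 transcripts in the estimated counts of their gene (percent, linear axes from 0) in each library, by group. Triangles are the TG series, circles the XC series and bars group means. The shares of Ubash3a-204 and Ptpn22-204 are higher in all 5 mid and late liver libraries than in the 3 controls. Ptpn22-204 is also above the controls in early liver, mid spleen and undivided cells.

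The surrounding pathway moved in both directions in late liver against control. Of 32 genes of TCR signal transduction, 7 rose and 10 fell (median log2 fold change -0.43, against -0.04 for all genes), where 19.9% of all genes were called higher and 14.3% lower. Zap70, which encodes a kinase that Sts-1 dephosphorylates, rose by 1.43 ± 0.26 (adjusted p = 0.00613, edgeR), from 153.4 ± 14.9 CPM (SD, n = 3) to 415.0 ± 53.9 (SD, n = 2). Sh2d2a, an adaptor that binds Lck, rose by 2.10 ± 0.40, and Fyn by 0.81 ± 0.27. The largest falls were of Grap2 (-2.03 ± 0.40), an adaptor linking LAT and SLP-76, Themis (-1.97 ± 0.32), which binds SHP-1 in developing T cells, and the Tec family kinase Txk (-1.93 ± 0.29).

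Of 39 other negative regulators, 14 rose and 7 fell in late liver (median 0.38, with 34.2% of all genes called), and in mid liver 10 rose and 6 fell (29.3% of all genes called). Spry1 and Spry2, inhibitors of receptor signaling to Erk, rose by 6.70 ± 1.41 and 4.67 ± 0.83, and the ubiquitin ligase gene Rnf128 (GRAIL) by 3.52 ± 0.44. The ubiquitin ligase genes Nedd4l (-2.18 ± 0.40) and Itch (-1.19 ± 0.25) and the adaptor gene Sit1 (-1.86 ± 0.43) had the largest falls. Of 17 inhibitory receptors, 7 rose and 2 fell (median 2.56, against -0.04 for all genes), where 19.9% of all genes were called higher and 14.3% lower. The lists were chosen with earlier results of these data known. Pdcd1 at 8.79 ± 1.52, Lag3 at 7.84 ± 1.37 and Siglecf at 6.42 ± 1.11 led the rise. Siglecf is a low value, at 0.114 CPM in controls and 10.2 in late liver. The 2 that fell, Pilra (-4.00 ± 1.24) and Lair1 (-2.05 ± 0.35), are also expressed by myeloid cells, and the part of myeloid RNA in controls was not tested (Pilra 12.0 ± 16.7 CPM in controls, SD, n = 3). Of 24 tested substrates and partners of the members, 3 rose and 5 fell (median -0.08), a share close to the 34.2% of all genes called. Mapk3, which encodes Erk1, a substrate of HePTP, rose by 0.88 ± 0.22, and Gab3 (-2.77 ± 0.39), Insr (-1.92 ± 0.45) and Sos1 (-1.39 ± 0.40) had the largest falls. All list genes named with a direction had an adjusted p under 0.05 (edgeR).

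Across the 14 libraries, the tested genes whose log2 CPM followed Ubash3b most closely were Mmd (Pearson's r = 0.995), Stk39 (0.983), Samsn1 (0.982), Hspa4l (0.981) and Nudt4 (0.981). Those closest to Pag1 were Camk1d (0.984), Kif1b (0.981), Arid3b (0.978), Usp28 (0.977) and Usp53 (0.977). These correlations describe libraries that share groups, series and depth, and no p is given.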

How the data were processed

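RNA of sorted TCRTg101 was sequenced in low-input libraries (in 2 batches per the study's methods). The authors deposited kallisto estimated counts (expected counts, not whole numbers) and TPM per transcript and run. The submitters' processing notes name bcl2fastq, kallisto, mm10 and GRCm38, and versions are not given in the sources used here. Kallisto divides reads among similar transcripts, an error the tests do not include. Here transcripts were matched to GENCODE vM21 (GRCm38; 116622 transcripts, 98.2%), estimated counts were summed per gene and over the runs of a library (26 runs, 15 libraries) and rounded. Which samples are runs of 1 library was inferred from their titles, as the sources used here do not state it. Runs of 1 library differed less than libraries of 1 group (mean chi-square per gene 41.4 to 325.1). Between runs this value was 13.2 to 22.5 in the TG series and 1.83 to 2.28 in the XC series.

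Genes were tested where 6 or more libraries reached 10 counts, with edgeR 4.0.16 (quasi-likelihood, robust, two-sided, R 4.3.3) on 14 libraries in 7 groups, with the series of the titles, taken as the batch, as a term (6 residual degrees of freedom). A set of 11 libraries, without the early and mid spleen libraries, was an alternative. TMM factors were 0.724 to 1.22, and log2 CPM used a prior count of 2. P-values were adjusted by Benjamini-Hochberg over 15449 genes with a threshold of 0.05. Estimated counts give no molecule numbers, and the 1 to 3 libraries per group limit precision. The fit was tried on simulated data. Python 3.11.15 (pandas 2.3.3, numpy 2.4.6, matplotlib 3.10.9) made tables and plots.

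The members and lists were chosen with earlier results of these data known. The text names the 10 members, from each list the 3 largest called rises and falls in late liver, and the 5 tested genes most like the members with the largest rise and fall. Paralog ratios, transcript shares and the comparison of series were added after the data were seen. Alternatives were DESeq2 1.42.0, RLE, no count filter, no series term, other sets of libraries, first runs and each library left out. RefSeq promoter windows were matched for 8 of 10 members (not Pag1 or Ptpn2). The oligo-dT library was left out of fits because its preparation differed.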

Additional observations from a re-analysis of the deposited data

Results flagged for a closer look

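No group had the 4 libraries needed to look for a single outlying sample. Ptpn22 moved in opposite directions in the TG and XC series, because the TG liver libraries (127.9 CPM in mid and 148.7 in late liver) were below the TG control (184.8), and the XC liver libraries (503.9 and 435.9 in mid and 496.8 in late liver) were above both XC controls (272.2 and 318.9). The test of that difference gave an adjusted p of 0.27 over all genes by edgeR, which called 1 gene with 1812 at an unadjusted p under 0.05, so a difference between series was not shown.

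The mid spleen library, which is 1 sample and entered no comparison, had Ubash3b at 75.0 CPM and Ptpn7 at 226.4 CPM, both more than 1.2 times the highest control (46.9 and 159.3). Its Pdcd1 was at 32.8 CPM.

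The oligo-dT library of naive cells had Csk at 339.7 CPM, Pag1 at 138.5 and Ptpn11 at 91.6 (without TMM scaling), each over 1.2 times both day 0 controls of low input (171.7 and 219.6 for Csk, 78.7 and 102.7 for Pag1, and 52.2 and 57.1 for Ptpn11). In the same library, Ptpn6 (252.5 CPM), Sla2 (74.3), Ubash3a (101.1) and Ubash3b (27.3) were below both of those controls. Ubash3a-208 held 70.1% of Ubash3a counts there. It is 1 library, and its preparation and the level cannot be told apart.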

How the results depend on the processing

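The number of members called in late liver was 4 or 5 under DESeq2, RLE, no filter, no series term, 11 libraries, first runs and day 0 controls only, against 5. In mid liver it was 3 without a series term, against 5, and 4 or 5 under those other settings. In the XC series only, 0 members were called in mid, late or mid and late liver, and against the day 18 control only 0 in each of these too. Both settings were added after the data were seen, and fewer libraries entered them. Late liver against undivided cells gave 4 members without a count filter and 3 with DESeq2, against 0, and early liver against early spleen gave 1 without a filter, against 0. With each library left out, the count ranged from 0 to 5 in late liver, 0 to 4 in mid liver, 3 to 5 in mid and late liver, 0 to 3 in early liver, and 0 to 2 in early liver against early spleen. It was 0 throughout for late against mid liver and early spleen against control.

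Over all genes, no series term left 1762 calls in mid, 2927 in late and 4439 in mid and late liver, against 4526, 5286 and 6776, the XC series only left 0, 8 and 6, and the day 18 control only left 0 in each. Leaving out a library gave as few as 0 in mid liver (without control replicate 2), 0 in late liver (without late replicate 2) and 2144 in mid and late liver (without control replicate 1). Where the fit called 0 genes, no filter gave 1295 in early liver, 642 in early spleen, 984 between them, 325 for late against mid liver, 222 for undivided cells against controls and 2217 for late liver against undivided cells. DESeq2 gave 408, 14, 59 and 53 for the first 4 of these and 1956 for the last. Without early liver replicate 2, 1921 genes were called in early liver and 973 against early spleen, and without early spleen replicate 1, 162 in early spleen.

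Changes that turned direction were of members that were not called. Csk in mid liver was -0.049 in the XC series only, and -0.018 (without control replicate 1) to 0.159 (without control replicate 2) with a library left out. Ptpn6 was -0.141 in mid and -0.023 in late liver against the day 18 control only. With a library left out, Ptpn2 in late liver ranged from -0.018 (without late replicate 2) to 0.197, and Ubash3a from -0.464 to 0.231 (without late replicate 2). The cause was not tested. No paired analysis was possible because replicate numbers were given in accession order and the numbers in titles were taken to mark runs.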
